A study of Mus musculus with 7 samples.

Results

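Translation initiation factors are the proteins that bring the ribosome to the start codon of a messenger RNA. Their transcripts were followed in dorsal root ganglia, which hold the cell bodies of sensory neurons, after injury of the sciatic nerve. Members were taken by symbol: of 85 gene names that begin with Eif and a digit from 1 to 6, 10 pseudogene names and 3 sex-linked genes (Eif2s3x, Eif2s3y and Eif1ax) were left out. This gave 72 of the 54309 genes in the table. Of these 72, 13 were listed at 0 in every sample, 9 were above 0 but below a mean of 1 TPM, and 50 passed that filter and were tested. TPM, the unit of the table, corrects reads for transcript length and gives every sample an equal total, so levels of different genes can be compared per length. The ganglia (lumbar levels 4 to 6) came from male C57bl/6 mice of 6 to 8 weeks. They were taken 72 h after the injury, at Zeitgeber time (ZT, hours from lights on) 20 in 4 samples and ZT 8 in 3 samples. Uninjured ganglia were not analysed here, and injury and dissection share a clock time in each group, so their effects cannot be told apart. The cells had been dissociated with enzymes and passed over an albumin gradient that enriches neurons.

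Initiation begins when eIF2, carrying GTP and the initiator tRNA, joins the small ribosomal subunit together with eIF1, eIF1A, eIF3 and eIF5. The eIF4F group (the cap-binding protein eIF4E, the scaffold eIF4G and the helicase eIF4A) brings this complex to the capped end of the messenger RNA, and eIF5B then joins the large subunit. Injured sensory neurons make new protein both in the cell body and in the axon, and phosphorylation of eIF2 and release of eIF4E from its binding proteins are the main known switches of the process. These switches act on proteins, which were not measured here.

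Some libraries stood apart. ZT8 replicate 2 had 18297 genes above 0 TPM, against 22541 to 25238 in the others. Ddx3y, a Y-linked gene, was listed at 0 in ZT20 replicates 3 and 4 although every sample is labelled male, and was at 11.7 to 24.2 TPM elsewhere. The mean log2(TPM + 1) of 13 neuronal markers was 9.62 to 9.77 at ZT20 and 8.99 to 9.48 at ZT8, and 4 of the 13 were higher at ZT20 by limma, beside 12.8% of all tested genes (1 of the 13 after correction for transcript length, beside 3.35%). The summed level of 8 satellite glia markers was 7500 to 9163 TPM at ZT20 and 12764 to 15486 TPM at ZT8. Of the 8, 3 were lower at ZT20, beside 3.61% of all tested genes. With quantile normalization 1 was lower, beside 5.5%, and after correction for transcript length 2 were, beside 4.71%. Apoe made up most of the satellite glia sum (means of 6701 and 12400 TPM), and Kcnj3, Cdh19 and Kcnj10 had positive differences (1.404, 0.38 and 0.21) that did not pass. Of 7 Schwann cell markers 0 passed in either direction, and 1 was lower after correction for transcript length. C1qa, 1 of 9 macrophage markers, and Mzb1, 1 of 6 tested plasma cell markers, were also lower at ZT20. The summed erythroid markers were at 9534 TPM in ZT8 replicate 2, against 951 and 1603 TPM in the other ZT8 samples and 2369 to 6679 TPM at ZT20. None of these neuronal and satellite glia markers was at 0 in any sample. The part of glia, immune cells and erythroid cells in the results was not tested. In these dissociated and enriched cells, fewer cells of a type in the ganglion, fewer left after the enrichment and less RNA per cell cannot be told apart. Library names follow a different scheme in each group, and any batch they stand for cannot be told apart from the group. Nothing in the labels says whether replicates are separate animals, so p-values measure the spread between these samples.

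Between ZT20 and ZT8, 9 of the 50 tested initiation factors were higher at ZT20 and 3 were lower, at a limma adjusted p under 0.05 (Benjamini-Hochberg, 14800 genes). The same test called 16.4% of all tested genes, 12.8% higher and 3.61% lower, beside 18% and 6% of the factors. At an unadjusted p under 0.05 there were 18 factors, beside 34.6% of all genes. The samples of the groups did not overlap for 9 factors that were higher and 12 that were lower, beside 24.5% and 8.72% of all genes (33.2% in either direction). The 9 higher transcripts were those of the scaffolds Eif4g1, Eif4g2 and Eif4g3, the large eIF3 subunits Eif3a and Eif3c, the helicase partner Eif4b, the cap-binding paralog Eif4e3, the subunit-joining GTPase Eif5b and the eIF5A paralog Eif5a2. The 3 lower ones were the eIF3 subunits Eif3h and Eif3m and the helicase Eif4a1. The median log2 difference (ZT20 minus ZT8) over the 50 was −0.050, beside 0.23 over all tested genes, and 21 of the 50 differences were positive, beside 66.4% of all genes. So the direction of a small difference depends on the scale: dividing each sample by its median ratio to the others moved the median of all genes to 0.015 and that of the factors to −0.30. On that scale 3 of the 50 were higher (Eif3c, Eif4g3 and Eif5a2) and 13 lower, beside 7.36% and 8.51% of all genes. Quantile normalization gave 5 higher and 2 lower, beside 6.91% and 5.5% of all genes. All 12 factors called on the TPM scale kept their sign on both of these scales and after correction for transcript length.

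**Figure D1:**
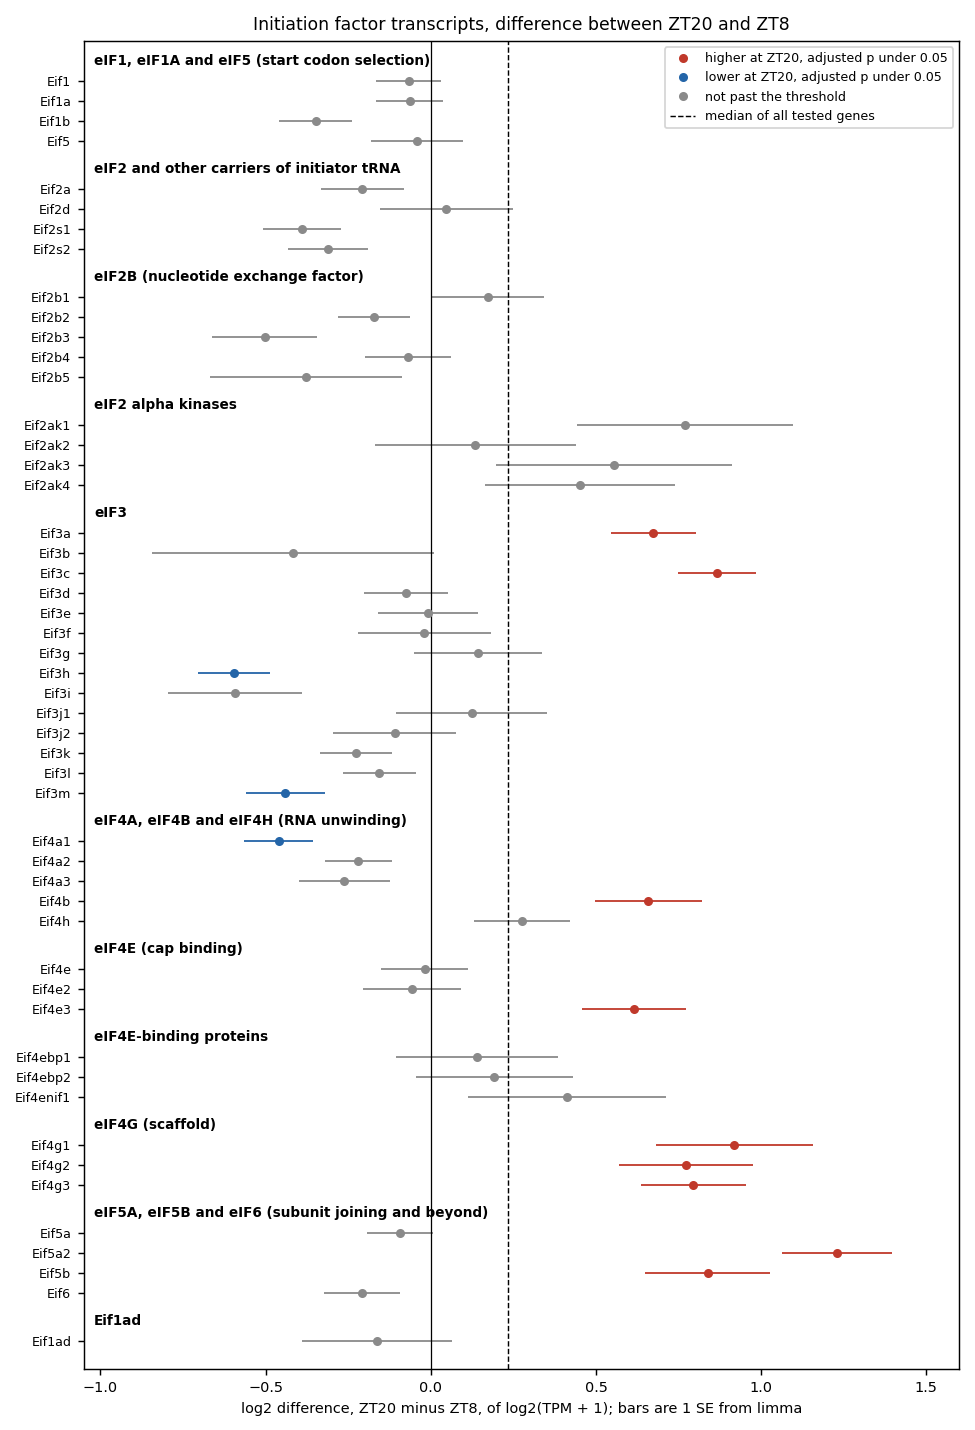
Difference of log2(TPM + 1) between ZT20 and ZT8 for the 50 tested initiation factors, grouped by complex; points are limma estimates from 4 and 3 samples, bars are 1 standard error, and the dashed line is the median of all tested genes (0.23). All 3 eIF4G points lie to the right, while the 4 eIF3 subunits past the threshold split into 2 higher (Eif3a and Eif3c) and 2 lower (Eif3h and Eif3m).

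Promoter sequences were looked up because clock proteins (CLOCK with BMAL1) bind the E-box, CACGTG, and the groups differ in clock time. RefSeq windows of build GRCm38.p6 (250 bases before to 50 after a gene's start) matched 40 of the 50 tested factors by symbol. A CACGTG was present for 10 of the 40 (25.0%), beside 11.4% of the 10903 tested genes with a window and 7.15% of all 32851 windows. It was present for 3 of 7 matched factors that were higher at ZT20, for 1 of 2 that were lower, and for 6 of 31 that did not pass. The D-box (TTATGTAA or TTACGTAA, in 0.825% of the tested genes and 1.06% of all windows) and the cAMP response element (TGACGTCA, in 3.47% and 1.79%) were found in 0 of the 40. Both strands were searched, and a match is a description of letters, not of binding. The 4 called factors with an E-box are shown from 250 bases before to 30 after the start, 5′ to 3′ on the gene's strand, with CACGTG in capitals; they are Eif5a2 (chr3:28781027-28781306, plus strand), Eif4g1 (chr16:20672477-20672756, plus strand), Eif3a (chr19:60790664-60790943, minus strand) and Eif4a1 (chr11:69672394-69672673, minus strand).
Eif5a2: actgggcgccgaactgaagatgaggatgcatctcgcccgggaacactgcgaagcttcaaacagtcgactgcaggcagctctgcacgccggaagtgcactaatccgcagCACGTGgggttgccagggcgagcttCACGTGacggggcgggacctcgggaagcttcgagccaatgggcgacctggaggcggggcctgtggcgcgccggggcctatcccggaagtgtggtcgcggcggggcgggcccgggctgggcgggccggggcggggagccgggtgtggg
Eif4g1: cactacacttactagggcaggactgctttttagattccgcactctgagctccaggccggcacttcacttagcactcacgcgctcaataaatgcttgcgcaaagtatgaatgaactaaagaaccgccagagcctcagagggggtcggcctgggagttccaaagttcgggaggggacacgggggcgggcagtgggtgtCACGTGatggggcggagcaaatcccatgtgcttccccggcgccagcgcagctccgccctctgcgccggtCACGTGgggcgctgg
Eif3a: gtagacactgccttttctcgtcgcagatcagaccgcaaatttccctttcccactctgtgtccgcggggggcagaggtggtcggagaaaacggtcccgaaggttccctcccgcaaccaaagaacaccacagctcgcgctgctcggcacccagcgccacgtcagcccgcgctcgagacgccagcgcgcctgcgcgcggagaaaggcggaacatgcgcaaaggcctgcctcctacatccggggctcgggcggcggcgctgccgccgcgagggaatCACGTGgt
Eif4a1: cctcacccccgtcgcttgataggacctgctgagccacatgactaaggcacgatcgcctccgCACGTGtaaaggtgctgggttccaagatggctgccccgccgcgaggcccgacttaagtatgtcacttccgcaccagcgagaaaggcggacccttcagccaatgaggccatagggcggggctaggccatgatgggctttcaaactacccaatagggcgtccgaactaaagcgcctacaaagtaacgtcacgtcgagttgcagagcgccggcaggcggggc
Eif5a2 and Eif4g1 each hold 2 copies, and Eif3a and Eif4a1 hold 1. The motif is thus shared by factors that differ in opposite directions: Eif5a2, Eif4g1 and Eif3a were higher at ZT20 and Eif4a1 lower. Eif3c, also higher, has a window with 0 copies.

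Factors that select the start codon did not pass the test. Eif1, which keeps the scanning ribosome open until a start codon is found, was at 582, 498, 560 and 564 TPM at ZT20 (replicates 1 to 4) and at 569, 582 and 578 TPM at ZT8 (replicates 1 to 3). Its log2 difference was −0.067 (standard error 0.098, limma adjusted p = 0.654). The ZT8 values lie near the upper end of the ZT20 range, with ZT8 replicate 2 just above it (582.3 against 582.0 TPM). Eif5, the GTPase-activating protein of eIF2, was at 720, 729, 665 and 755 TPM at ZT20 and at 721, 617 and 903 TPM at ZT8, a log2 difference of −0.042 (limma adjusted p = 0.849). Its ZT8 samples spread wider than its ZT20 samples on both sides. Eif1b, a paralog of Eif1, was at 263 to 285 TPM at ZT20 and at 315 to 394 TPM at ZT8, with no overlap between the groups, and missed the threshold (limma adjusted p = 0.0619). It passed, lower at ZT20, under median-ratio scaling and without ZT8 replicate 2. Eif1a was at 100.04 to 108 TPM at ZT20 and at 107 to 115 TPM at ZT8.

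The alpha and beta subunits of eIF2 missed the threshold, with values lower at ZT20 than at ZT8; genes of the gamma subunit were among the sex-linked ones left out. Eif2s1 encodes its alpha subunit, the one that stress kinases phosphorylate. It was at 126, 122, 114 and 130 TPM at ZT20 (replicates 1 to 4) and at 162, 180 and 144 TPM at ZT8 (replicates 1 to 3). Every ZT8 sample lay above every ZT20 sample, and the log2 difference was −0.39 (standard error 0.12, limma adjusted p = 0.0545). Eif2s2, the beta subunit, was at 124, 114, 127 and 126 TPM at ZT20 and at 147, 176 and 137 TPM at ZT8, with no overlap and a log2 difference of −0.31 (limma adjusted p = 0.1098). Groups without overlap and lower at ZT20 were found for 8.72% of all tested genes. Both subunits passed, lower at ZT20, under median-ratio scaling and after correction for transcript length, and Eif2s1 also without ZT8 replicate 3 (limma adjusted p = 0.0491). The ratio of Eif2s1 to Eif2s2 stayed between 0.893 and 1.10 in all 7 samples. Neither Eif2a nor Eif2d, which can deliver initiator tRNA by other routes, passed the test, but Eif2a passed, lower at ZT20, with median-ratio scaling (−0.45, limma adjusted p = 0.0343) and with the length correction (−0.47, limma adjusted p = 0.0471).

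None of the 5 subunits of eIF2B, the exchange factor that reloads eIF2 with GTP, passed the test, and their median log2 difference was −0.17. With median-ratio scaling the median was −0.42 and 2 were lower (Eif2b2 and Eif2b3, limma adjusted p = 0.0278 and 0.0330), beside 8.51% of all genes. Eif2b5, the catalytic subunit, was at 46.0 TPM in replicate 1 of ZT20 and at 106, 105 and 105 TPM in replicates 2 to 4, beside 98.4, 112 and 126 TPM at ZT8. A single ZT20 library is therefore far below the other 6, and the difference of −0.38 had a limma adjusted p of 0.381. Without that library it was −0.084 (limma adjusted p = 0.714). Eif2b3, of the same complex, was at 40.1 to 50.6 TPM at ZT20 and at 54.7, 79.5 and 66.5 TPM at ZT8, without overlap (log2 difference −0.50, limma adjusted p = 0.0616). It passed without ZT8 replicate 1 (limma adjusted p = 0.0388).

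All 4 kinases that phosphorylate eIF2 alpha had positive differences, with a median of 0.50 beside 0.23 over all genes, of which 66.4% were positive, and none passed the test. The median of the 4 was 0.31 with median-ratio scaling and 0.18 with quantile normalization, with 3 positive in each, and 0.028 with 2 positive after the length correction. Eif2ak3 (PERK, the kinase that senses unfolded protein in the endoplasmic reticulum) was at 6.00, 7.60, 8.12 and 6.82 TPM at ZT20 (replicates 1 to 4). In ZT8 replicates 1 to 3 it was at 2.97, 9.64 and 2.97 TPM. ZT8 replicate 2 held the highest value of all 7, while the other ZT8 libraries held the lowest. Over all samples the log2 difference was 0.55 (standard error 0.36, limma adjusted p = 0.297), and without ZT8 replicate 2 it was 1.03 (limma adjusted p = 0.00994), when 16.0% of all genes were called higher and 4.53% lower. Eif2ak4 (GCN2, which senses uncharged tRNA) was at 3.41, 2.03, 2.58 and 3.21 TPM at ZT20 and at 1.07, 1.65 and 2.82 TPM at ZT8, with overlapping groups (log2 difference 0.45, limma adjusted p = 0.292). Eif2ak1 (HRI, the heme-regulated kinase) was at 20.9 to 34.9 TPM at ZT20 and at 22.2, 8.67 and 22.3 TPM at ZT8. Here ZT8 replicate 2 held the lowest value instead, and the difference of 0.77 did not pass (limma adjusted p = 0.134). Without that library it was 0.35 (limma adjusted p = 0.254). Eif2ak2 (PKR, activated by double-stranded RNA) was at 17.3 to 25.8 TPM at ZT20 and at 11.1 to 28.3 TPM at ZT8.

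Subunits of eIF3, the large assembly that scaffolds the other factors on the small subunit, differed in opposite directions: 2 of 14 were higher at ZT20, 2 were lower and 10 did not pass. That is 14.3% in each direction, beside 12.8% of all tested genes higher and 3.61% lower. With median-ratio scaling 1 was higher (Eif3c) and 5 were lower (Eif3h, Eif3i, Eif3k, Eif3l and Eif3m), beside 7.36% and 8.51% of all genes. Eif3c (ENSMUSG00000030738), of the octameric core, was at 163, 131, 136 and 134 TPM at ZT20 (replicates 1 to 4) and at 75.6, 74.0 and 80.5 TPM at ZT8 (replicates 1 to 3). The lowest ZT20 value lies well above the highest ZT8 value, and the log2 difference was 0.87 (standard error 0.12, limma adjusted p = 0.00499). Eif3a (ENSMUSG00000024991), the largest subunit, was at 58.7, 67.4, 55.6 and 56.1 TPM at ZT20 and at 34.4, 39.8 and 36.3 TPM at ZT8, a log2 difference of 0.67 (standard error 0.13, limma adjusted p = 0.0133). After removal of the trend with transcript length, Eif3c still passed (0.61, limma adjusted p = 0.0312), whereas Eif3a was at 0.17 (limma adjusted p = 0.520). Under median-ratio scaling Eif3a also missed the threshold (0.43, limma adjusted p = 0.0912).

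Eif3h (ENSMUSG00000022312), a subunit of the same core, was at 121, 124, 114 and 106 TPM at ZT20 (replicates 1 to 4) and at 167, 177 and 186 TPM at ZT8 (replicates 1 to 3). Its log2 difference was −0.60 (standard error 0.11, limma adjusted p = 0.0114), with no overlap. Eif3m (ENSMUSG00000027170), also of the core, was at 93.9, 89.1, 102 and 82.2 TPM at ZT20 and at 120, 119 and 136 TPM at ZT8, a log2 difference of −0.44 (standard error 0.12, limma adjusted p = 0.0400). Eif3m overlaps the antisense gene Ccdc73 in GENCODE M21, so reads of the pair may not be separable, and it passed in 1 of the 7 fits that each left out a sample. Eif3a, Eif3c and Eif3h passed in all 7, as did Eif5a2. The ratio of Eif3c to Eif3h in TPM was 1.35, 1.06, 1.19 and 1.26 in the ZT20 samples and 0.453, 0.419 and 0.433 in the ZT8 samples. Thus Eif3c exceeded Eif3h in every ZT20 library and was below it in every ZT8 library. The ratio rests on members already called and adds no test.

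**Figure D2:**
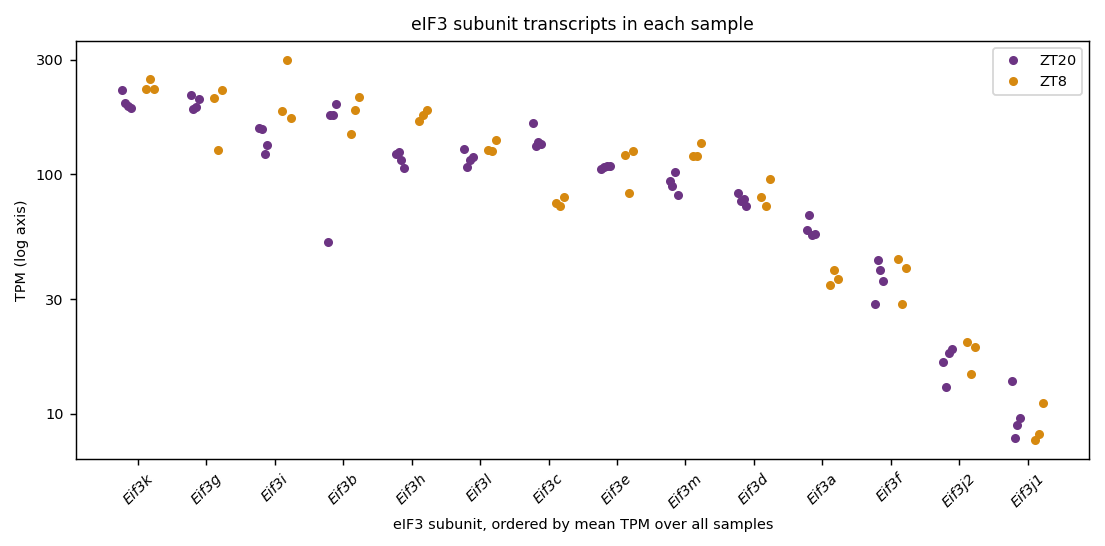
TPM of the 14 eIF3 subunits in each of the 4 ZT20 and 3 ZT8 samples (log axis), ordered by mean over all samples. Eif3c and Eif3a sit higher at ZT20 and Eif3h and Eif3m lower, and the low ZT20 point of Eif3b is replicate 1 (52.1 TPM).

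The other eIF3 subunits ranged from Eif3k, with a mean of 201 TPM at ZT20 and 235 TPM at ZT8, down to Eif3j1, with 10.04 and 9.05 TPM. Eif3j1 and Eif3j2 are near-identical copies, and how reads were split between them is not stated. Eif3b, which helps hold the scanning complex together, was at 52.1 TPM in replicate 1 of ZT20 and at 176, 176 and 196 TPM in replicates 2 to 4, beside 147, 185 and 210 TPM at ZT8. This is the library in which Eif2b5 was low as well. Without it the Eif3b difference was 0.030, in place of −0.42 with all samples (limma adjusted p = 0.512). Eif3i was at 121 to 156 TPM at ZT20 and at 183, 301 and 172 TPM at ZT8, without overlap, and missed the threshold (log2 difference −0.59, limma adjusted p = 0.0775). Its high value was again in ZT8 replicate 2, without which the difference was −0.34 (limma adjusted p = 0.109). With median-ratio scaling Eif3i passed (−0.84, limma adjusted p = 0.0471).

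All 3 eIF4G scaffolds, which bridge the cap, the helicase and eIF3, were higher at ZT20, as were 12.8% of all tested genes. Eif4g1 (ENSMUSG00000045983) was at 94.9, 92.4, 129 and 154 TPM at ZT20 (replicates 1 to 4) and at 74.4, 43.8 and 67.3 TPM at ZT8 (replicates 1 to 3), a log2 difference of 0.92 (standard error 0.24, limma adjusted p = 0.0344). Eif4g2 (ENSMUSG00000005610), also called DAP5, lacks the eIF4E-binding region and serves cap-independent initiation. It was at 465, 376, 579 and 609 TPM at ZT20 and at 370, 246 and 271 TPM at ZT8, a log2 difference of 0.77 (standard error 0.20, limma adjusted p = 0.0355). Eif4g3 (ENSMUSG00000028760), a close paralog of Eif4g1, was at 22.1, 24.2, 29.3 and 27.4 TPM at ZT20 and at 13.0, 14.9 and 15.3 TPM at ZT8 (log2 difference 0.79, standard error 0.16, limma adjusted p = 0.0152). The groups did not overlap in any of the 3, as in 24.5% of all tested genes in that direction, though the lowest ZT20 value of Eif4g2 was close to its highest ZT8 value.

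Eif4g2 made up 76.3% to 79.9% of the summed eIF4G TPM at ZT20 and 76.7% to 80.9% at ZT8. Within ZT20, all 3 were higher in replicates 3 and 4, the libraries without Ddx3y, than in replicates 1 and 2. Without replicates 3 and 4 the log2 differences were 0.63, 0.52 and 0.65 for Eif4g1, Eif4g2 and Eif4g3, with limma adjusted p-values of 0.298, 0.312 and 0.236. The eIF4G transcripts are among the longest of the factors (5638, 7995 and 8134 nt), and after the length correction they became 0.37, 0.13 and 0.15 (limma adjusted p = 0.241, 0.637 and 0.503). Leaving out any of ZT20 replicates 1, 3 or 4 or ZT8 replicates 2 or 3 ended the call of Eif4g1 and of Eif4g2 (limma adjusted p = 0.0549 to 0.102). For Eif4g3 only ZT20 replicates 3 and 4 did so (0.0621 and 0.0561). With median-ratio scaling Eif4g3 alone of the 3 passed (limma adjusted p = 0.0547 for Eif4g1 and 0.0693 for Eif4g2), and with quantile normalization Eif4g3 alone did not (0.0578).

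The helicase and its partners did not move together: Eif4a1 was lower at ZT20 and Eif4b higher. Eif4a1 (ENSMUSG00000059796), an eIF4A helicase of the cap complex, was at 483, 467, 485 and 519 TPM at ZT20 (replicates 1 to 4) and at 684, 607 and 731 TPM at ZT8 (replicates 1 to 3). The groups did not overlap, and the log2 difference was −0.46 (standard error 0.10, limma adjusted p = 0.0231). It passed in 1 of the 7 fits that each left out a sample, the one without ZT8 replicate 2, and was at 0.0509 to 0.0790 in the others (limma adjusted p). Eif4a2, the paralog abundant in brain, was at 516, 516, 581 and 556 TPM at ZT20 and at 614, 677 and 603 TPM at ZT8. It did not overlap either and did not pass (log2 difference −0.22, limma adjusted p = 0.160), but it passed with median-ratio scaling (−0.47, limma adjusted p = 0.0308). Eif4a1 made up 45.5% to 48.3% of the pair at ZT20 and 52.7%, 47.2% and 54.8% at ZT8. Both overlap small nucleolar RNA genes on their own strand, as do the called factors Eif3a, Eif4g1 and Eif4g2. Eif4g3 overlaps a microRNA gene on its own strand and an antisense gene. Eif4b (ENSMUSG00000058655), which stimulates the helicase, was at 25.7, 23.8, 30.01 and 29.99 TPM at ZT20 and at 18.7, 14.4 and 17.8 TPM at ZT8, a log2 difference of 0.66 (standard error 0.16, limma adjusted p = 0.0290). It missed the threshold under median-ratio scaling (0.42, limma adjusted p = 0.0683) and quantile normalization (0.41, limma adjusted p = 0.0794). After the length correction it missed it as well (0.33, limma adjusted p = 0.140). The call also ended without ZT20 replicate 1, 3 or 4 or ZT8 replicate 3 (limma adjusted p = 0.0545 to 0.101). Eif4h, with a related role, and Eif4a3, which works in the exon junction complex, did not pass.

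Of the 3 cap-binding transcripts tested, the least abundant one passed, higher at ZT20, as did 12.8% of all tested genes. Eif4e was at 278, 374, 280 and 321 TPM at ZT20 (replicates 1 to 4) and at 295, 331 and 320 TPM at ZT8 (replicates 1 to 3), with the ZT8 values inside the ZT20 range (log2 difference −0.018, standard error 0.13, limma adjusted p = 0.934). Eif4e3 (ENSMUSG00000093661), a paralog of eIF4E that also binds the cap, was at 24.4, 21.4, 21.6 and 20.4 TPM at ZT20 and at 15.4, 11.9 and 14.8 TPM at ZT8. Every ZT20 value exceeded every ZT8 value, with a log2 difference of 0.61 (standard error 0.16, limma adjusted p = 0.0327). It missed the threshold under median-ratio scaling (0.38, limma adjusted p = 0.116) and quantile normalization (0.34, limma adjusted p = 0.154). After the length correction it missed it as well (0.49, limma adjusted p = 0.0727). The call also ended in the fits without any 1 ZT20 sample or without ZT8 replicate 3 (limma adjusted p = 0.0571 to 0.0990). It overlaps the gene Gm20696 on the same strand, so the counting could split their reads. Eif4e3 made up 4.59% to 6.58% of the TPM of Eif4e, Eif4e2 and Eif4e3 at ZT20 and 2.98% to 3.94% at ZT8.

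Of the proteins that hold eIF4E inactive, none passed the test. Eif4ebp1, the best known target of mTOR among them, was at 36.3, 33.3, 30.6 and 37.1 TPM at ZT20 (replicates 1 to 4) and at 25.8, 49.1 and 23.3 TPM at ZT8 (replicates 1 to 3). As with Eif2ak3, ZT8 replicate 2 was the highest of all samples and the other ZT8 libraries the lowest. The log2 difference was 0.14 (limma adjusted p = 0.713) with all samples and 0.46 (limma adjusted p = 0.0446) without ZT8 replicate 2. Eif4ebp2, the form prominent in brain, was at 2.80, 2.29, 2.84 and 3.12 TPM at ZT20 and at 1.85, 3.09 and 2.03 TPM at ZT8, with overlapping groups (log2 difference 0.19, limma adjusted p = 0.591). Per length, Eif4ebp1 was the more abundant, with ZT20 means of 34.3 and 2.76 TPM.

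The widest gap among the 50 factors was in Eif5a2 (ENSMUSG00000050192), the tissue-restricted paralog of eIF5A, the hypusine-bearing factor that helps stalled ribosomes elongate and terminate. It was at 65.0, 59.9, 82.7 and 90.9 TPM at ZT20 (replicates 1 to 4) and at 30.7, 31.3 and 30.3 TPM at ZT8 (replicates 1 to 3). The ZT8 samples lie within a narrow band, and every ZT20 sample is far above it. The log2 difference was 1.23 (standard error 0.17, limma adjusted p = 0.00468), a fold of 2.35 on the log2(TPM + 1) scale. It passed under median-ratio scaling (0.98, limma adjusted p = 0.0102) and after the length correction (0.74, limma adjusted p = 0.0224). Without ZT20 replicates 3 and 4, the 2 highest libraries, it was 1.00 (limma adjusted p = 0.1102). Eif5a, the common form, was the most abundant factor, at 1650, 1611, 1502 and 1495 TPM at ZT20 and at 1670, 1787 and 1555 TPM at ZT8, with overlapping groups (log2 difference −0.094, limma adjusted p = 0.534). Eif5a2 made up 3.79%, 3.58%, 5.22% and 5.73% of the pair in the ZT20 samples and 1.81%, 1.72% and 1.91% in the ZT8 samples.

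Subunit joining was represented by Eif5b and Eif6. Eif5b (ENSMUSG00000026083), the GTPase that joins the large subunit, was at 17.8, 20.8, 17.6 and 15.8 TPM at ZT20 (replicates 1 to 4) and at 11.04, 7.45 and 10.7 TPM at ZT8 (replicates 1 to 3). No ZT8 value reached the ZT20 range, and the log2 difference was 0.84 (standard error 0.19, limma adjusted p = 0.0225). After the length correction it was 0.20 (limma adjusted p = 0.496), and under median-ratio scaling 0.61 (limma adjusted p = 0.0566). With quantile normalization it was 0.54 (limma adjusted p = 0.0907). It missed the threshold without any 1 ZT20 sample (0.0509 to 0.0726), and it overlaps the antisense gene Rev1. Eif6, which keeps the large subunit from joining too early, was at 264, 287, 228 and 245 TPM at ZT20 and at 275, 301 and 309 TPM at ZT8, with overlapping groups (log2 difference −0.21, limma adjusted p = 0.229).

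**Figure D3:**
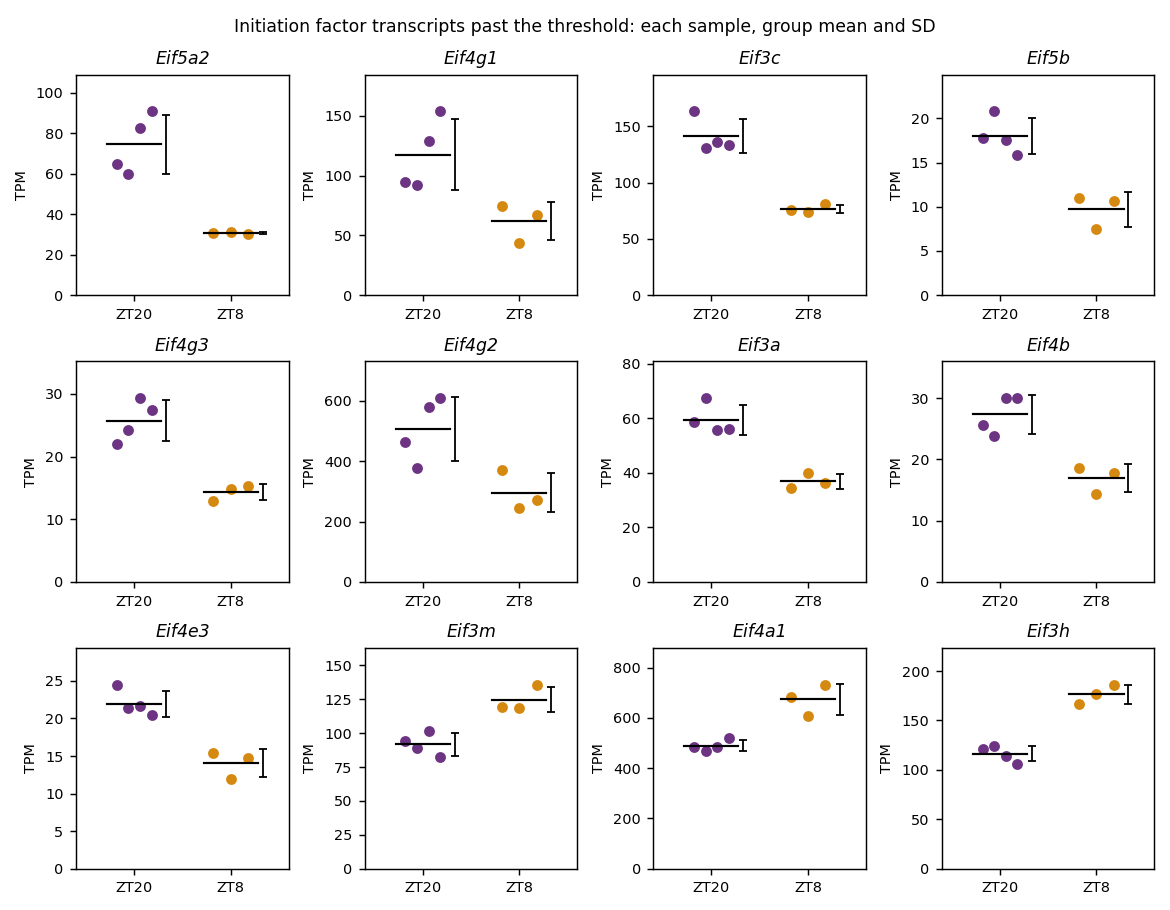
TPM of the 12 initiation factors past the threshold in each of the 4 ZT20 and 3 ZT8 samples, with the group mean (line) and SD (bar), each panel from 0. The groups do not overlap in any panel; the first 9 panels are higher at ZT20 and the last 3 lower.

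Transcript length went with the difference. Across the 50 tested factors, which are not independent replicates and share the same libraries, Spearman's rho between the log2 difference and the length of the longest annotated transcript was 0.585, beside 0.410 over all tested genes with a length. The 9 higher factors had a median length of 5125 nt (2515 to 8134) and the 3 lower ones 1964 nt (1295 to 3167), beside 3108 nt over all tested genes. After each sample's trend with length was removed, rho over the 50 was 0.117. Then 2 factors were higher at ZT20 (Eif3c and Eif5a2) and 6 lower (Eif2a, Eif2s1, Eif2s2, Eif3h, Eif3m and Eif4a1), beside 3.35% and 4.71% of all genes (8.06% in either direction). Eif3c, Eif5a2, Eif3h, Eif3m and Eif4a1 thus passed on the TPM scale, with median-ratio scaling and with the length correction. Of these 5, Eif4a1 missed the threshold under quantile normalization (−0.35, limma adjusted p = 0.0870). Why length goes with the difference was not tested.

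**Figure D4:**
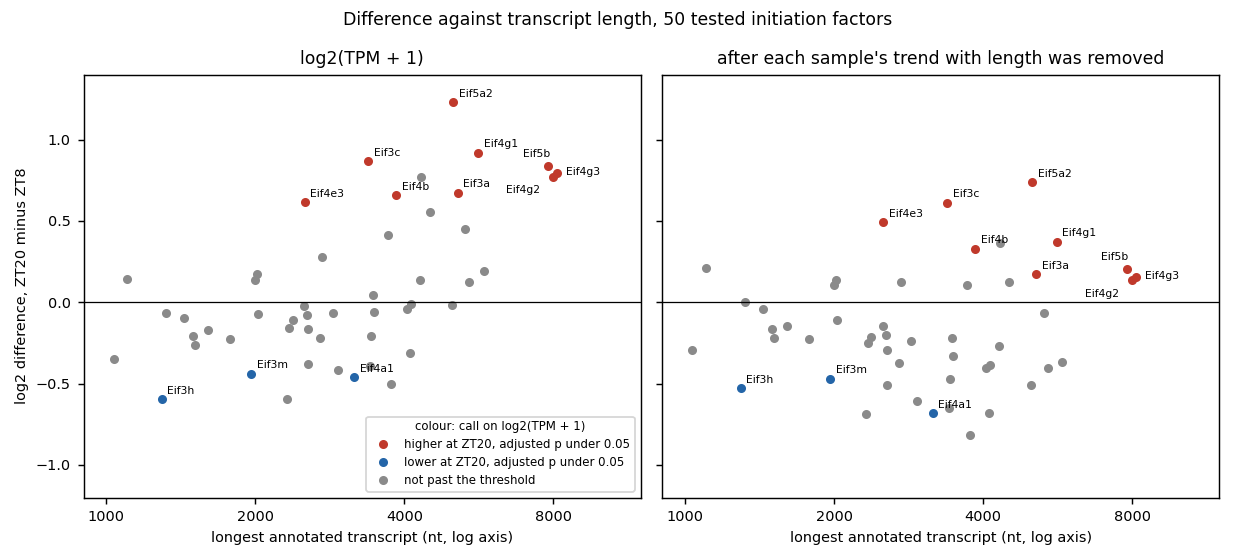
Log2 difference (ZT20 minus ZT8) of the 50 tested factors against longest annotated transcript length in nt (log axis), on log2(TPM + 1) (left) and after removal of each sample's trend with length (right); colours mark the calls on the left scale. The long eIF4G and Eif5b transcripts move towards 0 on the right, while Eif5a2 and Eif3c remain at 0.74 and 0.61.

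Without ZT20 replicates 3 and 4, the libraries without Ddx3y, 2 samples stand against 3, and 0 of 14687 genes passed by limma (0.0% of all genes). An unadjusted p under 0.05 was found for 2378 genes (16.2%) and for 10 of the 50 factors. All 12 called factors kept their sign there, at 0.52 to 1.00 for the higher and −0.52 to −0.44 for the lower ones, with limma adjusted p-values of 0.11 to 0.32. With the neuronal minus non-neuronal marker score as a covariate, 0 of the 50 passed by limma, beside 28 genes in all (0.189%), and 12 had an unadjusted p under 0.05, beside 16.1% of all genes. The 12 called factors kept their sign in that fit, at 0.49 (Eif4e3) to 1.31 (Eif5a2) for the higher and −0.71 (Eif3h) to −0.54 (Eif4a1) for the lower ones. That score was 5.39 to 5.79 at ZT20 and 4.80 to 5.43 at ZT8.

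A further 34 genes that regulate initiation, listed with earlier results known, were measured alongside. Of these, 9 were higher at ZT20 and 0 lower, beside 12.8% and 3.61% of all genes, and the median log2 difference was 0.47, beside 0.23. With median-ratio scaling the counts were 5 and 1 (7.36% and 8.51% of all genes), and with the length correction 3 and 2 (3.35% and 4.71%). The list has 3 leading genes by p-value. Larp1, which binds the 5′ ends of messenger RNAs for the translation machinery, was at a mean of 17.9 TPM at ZT20 and 4.87 TPM at ZT8 (log2 difference 1.69, limma adjusted p = 0.00193). Pabpc1, the cytoplasmic poly(A)-binding protein that contacts eIF4G, was at 101 and 46.5 TPM (1.12, limma adjusted p = 0.00395), and Paip1, its partner, at 30.5 and 8.54 TPM (1.78, limma adjusted p = 0.0157). These 3 also passed with median-ratio scaling and with the length correction. Mtor, the kinase upstream of the eIF4E-binding proteins, was at 15.9 and 25.0 TPM (−0.56, limma adjusted p = 0.154; −1.204 and 0.0298 with the length correction), and Rps6kb1, the S6 kinase, at 61.5 and 46.2 TPM (0.41, limma adjusted p = 0.205). Downstream of eIF2 phosphorylation, Atf4 was at 77.4 and 60.2 TPM (0.36, limma adjusted p = 0.0737) and Ppp1r15a, a phosphatase subunit that reverses it, at 75.3 and 76.3 TPM (−0.033, limma adjusted p = 0.903). Its paralog Ppp1r15b, named after its values were seen, was higher, at 11.02 and 4.28 TPM (1.27, limma adjusted p = 0.0482), and missed the threshold with median-ratio scaling (1.07, limma adjusted p = 0.0677) and with the length correction (0.73, limma adjusted p = 0.190).

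Of the elongation and release factors, 1 of 14 was higher and 0 lower, beside 12.8% and 3.61% of all genes, with a median difference of −0.074. With median-ratio scaling 0 were higher and 1, Dohh, lower, and with the length correction 0 passed in either direction, beside 7.36% higher and 8.51% lower, and 3.35% and 4.71%, of all genes. The gene higher on the TPM scale was Eef2, which moves the ribosome along, at 222 TPM at ZT20 and 138 TPM at ZT8 (log2 difference 0.71, limma adjusted p = 0.0360). It was at 0.46 (limma adjusted p = 0.120) with median-ratio scaling and at 0.50 (limma adjusted p = 0.0900) with the length correction. Eef1a1, which delivers aminoacyl-tRNA, was at 608 and 654 TPM (−0.11, limma adjusted p = 0.669) and its neuronal paralog Eef1a2 at 2.56 and 1.49 TPM (0.64, limma adjusted p = 0.256). Dohh, an enzyme of hypusine synthesis on eIF5A, was at 171 and 206 TPM (−0.27, limma adjusted p = 0.122; −0.52 and 0.0282 with median-ratio scaling), and Eef2k, the kinase that inhibits eEF2, at 9.85 and 4.51 TPM (1.27, limma adjusted p = 0.127).

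The 22 members not tested were scarce. They were 17 copies of Eif1ad, 11 of them at 0 in every sample, the copies Eif4a3l1 and Eif4a3l2, which were listed at 0 throughout, and Eif4e1b, Eif4ebp3 and Eif2c5. Eif2c5 carries an older name of the argonaute family and is no initiation factor by function. Eif4ebp3 was listed at 0 in ZT20 replicates 1 to 3, at 1.90 TPM in replicate 4, and at 0.960, 1.66 and 0.761 TPM in the ZT8 samples. Eif1ad itself was tested and did not pass, at 44.7 to 48.3 TPM at ZT20 and 34.1 to 70.5 TPM at ZT8 (log2 difference −0.16, limma adjusted p = 0.637). Without ZT8 replicate 2 it passed, lower at ZT20 (−0.47, limma adjusted p = 0.0296). Summed over the 72 members, initiation factor transcripts made up 8091 to 8454 TPM at ZT20 and 8507 to 8948 TPM at ZT8.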

How the data were processed

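RNA sequencing of 7 samples was analysed (ZT20, 4; ZT8, 3), grouped by the sample titles. The authors deposited TPM values, with a column per sample, and 0 sample columns were left unused. The submitters' processing notes name FastQC 0.11.9, Trim Galore 0.6.6, Salmon 1.6.0, DESeq2 1.34.0 and the build GRCm39, with no role or order; the annotation release and any scaling between samples are not given in the sources used here. TPM keeps no read total, so depth and counting error are unknown.

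Values were analysed as log2(TPM + 1), which understates changes of low genes. The 14800 genes whose mean reached 1 TPM were fitted with limma 3.58.1 (lmFit, eBayes with an intensity trend, R 4.3.3) with the group as the sole term and 7 samples; p-values are two-sided and Benjamini-Hochberg adjusted across those genes. The procedure was run on simulated data with independent noise for each gene, without a length trend or shared differences between libraries. That run therefore says nothing about those limits. Tables and figures were made with pandas 2.3.3 and matplotlib 3.10.9 in Python 3.11.15. Transcript lengths and overlaps came from GENCODE M21 (GRCm38) by gene identifier, known for 14745 tested genes (99.6%), and promoters from RefSeq (GRCm38.p6) by symbol. Because the submitters' notes name another build, no other coordinates are given. The length correction removed each sample's loess trend (span 0.3) of the log value with log2 length.

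Per-sample values are given for every called member and for a list of 18 set with the design; Eif2ak1, Eif3b, Eif3i, Eif2s2, Eif2b3, Eif1b and the members with a sample far from the rest were added after their values were seen. Members and lists were chosen with earlier results of these data known, so no p-value was adjusted over a list alone and no set was tested. Alternatives changed the pseudocount (0.1), the filter (none, or a mean of 5 TPM), the scaling (median ratios, quantiles, or TPM without mitochondrially encoded genes), or added the length correction, the replicate number as a block (also with the length correction), a marker score as covariate, no trend, array weights, a threshold of 0.10, and leaving out samples.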

Additional observations from a re-analysis of the deposited data

Results flagged for a closer look

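In 7 of the 50 tested factors, 1 of the 4 ZT20 samples lay farther from the other 3 than Dixon's criterion allows at its usual level, where chance flags about 1 in 20 groups. ZT20 replicate 1 was low for Eif2b5 (46.0 TPM), Eif3b (52.1 TPM) and Eif1a (100.04 TPM) and high for Eif3c (163 TPM, a called factor). Replicate 2 was low for Eif2b2 (92.7 TPM) and high for Eif4enif1 (15.4 TPM), and replicate 4 was high for Eif2b4 (92.9 TPM). The differences for Eif1a and Eif2b2 are small against their means, whereas Eif2b5 and Eif3b were far below their values in every other library.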

How the results depend on the processing

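The cause of each change was not tested. Of 712 values for 34 named factors under the alternatives, 560 kept their direction and side of the threshold. Another 108 missed a threshold they had passed, 23 newly passed and 21 changed sign, none of these 21 in a called factor. All 108 belong to the 12 called factors, since a factor not called had no call to lose. Of the 12, 6 kept their call with median-ratio scaling and 7 with quantile normalization. With the length correction 5 did, and with the marker covariate 0. Counts are given as genes (higher, lower), then factors. No filter gave 1178 genes (978, 200) and 6 factors (5, 1); median-ratio scaling 1089 and 1260 genes, and 3 and 13 factors; quantile normalization 1023 and 814 genes, and 7 factors (5 higher). The length correction gave 1189 genes (494 higher) and 2 and 6 factors. The marker covariate gave 28 genes (27, 1) and 0 factors, while 12 of the 50 factors had an unadjusted p under 0.05. Array weights gave 3899 genes (2982, 917) and 6 lower factors, and no trend 332 lower genes and 1 lower factor. A threshold of 0.10 gave 4079 genes (3098, 981) and 7 lower factors. Without ZT20 replicates 3 and 4, 0 genes and 0 factors passed by limma, beside 2378 genes with an unadjusted p under 0.05.

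Leaving out 1 sample at a time gave 723 to 3047 genes (620 to 2375 higher, 103 to 672 lower) and 4 to 14 factors (3 to 9 higher, 1 to 5 lower). The lowest factor counts came without ZT20 replicate 3 or 4 (4 each), and the counts were 5 without ZT20 replicate 1 and 7 without ZT8 replicate 3.

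The sample titles give a replicate number and do not say whether equal numbers are paired across the groups. Deviations of same-numbered samples correlated at −0.014, 0.153 and 0.083. With groups of 4 and 3 samples these correlations cannot decide whether samples were paired. With the replicate block 1174 genes (891, 283) and 4 factors (Eif3a, Eif3c and Eif5a2 higher, Eif3h lower; 3 and 1) passed, and with the block and the length correction 410 genes (186, 224) and 1 factor, Eif4a1, lower, with 0 higher. Of the 3 numbered pairs, only those of replicate 2 correlated best with their own number in both directions.

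Signs changed only in factors that did not pass. Under quantile normalization the log2 difference was 0.036 for Eif1, 0.047 for Eif4e, −0.055 for Eif4ebp1, −0.080 for Eif4ebp2, 0.053 for Eif5 and 0.0012 for Eif5a. Median-ratio scaling gave −0.10 for Eif4ebp1. The length correction gave −0.068 for Eif2ak4 and −0.36 for Eif4ebp2, and with the replicate block −0.090 and −0.38. The marker covariate gave −0.088 for Eif2ak4 and 0.095 for Eif4e, and leaving out ZT20 replicates 3 and 4 gave 0.034 for Eif4e. Over the fits without 1 sample the ranges were −0.18 to 0.022 for Eif2b4, −0.60 to 0.030 for Eif3b, −0.11 to 0.037 for Eif4e, −0.058 to 0.46 for Eif4ebp1 and −0.17 to 0.10 for Eif5.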
